A study of Caenorhabditis elegans with 9 samples.

Results

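Gene expression in whole L2 larvae was compared between the transgenic line hsf-1(ok600); rmSi1[hsf-1::gfp] and wild type, over all genes whose FPKM was estimated in both genotypes (status OK) and reached at least 1 in either. FPKM is a count of sequenced fragments scaled for transcript length and for the size of the library. Of 20389 genes listed, 12563 (61.6%) met this rule, and 7826 did not. Values were at least 1 in both genotypes for 11103 of these genes, in the transgenic line alone for 732 and in wild type alone for 728. The last genes inside the rule were fbxa-97, at 1.00014 FPKM in the transgenic line and 0.831 in wild type, and Y73B6A.6, at 0.518 in the transgenic line and 1.00145 in wild type. The first outside it was C17B7.4, at 0.999976 in the transgenic line and 0.672 in wild type.

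The transgenic line (strain AM1061) has on both chromosomes the allele ok600, a deletion within hsf-1, the heat shock factor gene, and carries rmSi1, a transgene that encodes HSF-1 fused to GFP. Wild type (strain N2) carries neither, and the third genotype of the series, the mutant hsf-1(ok600) without the transgene, is used here for side-by-side values. Mutant larvae were the GFP-negative progeny of the balanced strain OG576, in which the chromosome carrying ok600 is kept over hT2. The balancer hT2 holds the markers bli-4(e937), let-?(q782) and qIs48, and qIs48 combines pmyo-2::gfp, ppes-10::gfp and pges-1::gfp. Each genotype had 3 libraries, each from 500 larvae pooled over several collections at 30 h after an egg lay of 2 h, at a stated 20 °C and with no heat shock named. The comparison rests on 1 transgenic strain, and the labels give neither the promoter of the transgene nor its insertion site.

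HSF-1 is the transcription factor of the heat shock response: under proteotoxic stress it forms trimers, binds heat shock elements and induces genes for chaperones. Chaperones of the Hsp70 and Hsp90 classes, their J-domain and other cochaperones, and the CCT chaperonin also fold newly made proteins in unstressed cells. In worms, HSF-1 is in addition required for larval development at ordinary temperatures.

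The deposited table holds 1 FPKM per gene and genotype with a lower and an upper bound, made by the authors from 3 libraries, and no spread between libraries can be given. Values are printed with these bounds in parentheses, and their confidence level is not given. A gene was called where the bounds of the 2 genotypes did not overlap. The labels do not say whether the libraries came from separate cultures, and these values hold no record of the sequencing depth. In RNA of whole larvae, fewer cells of a type and less RNA per cell cannot be told apart, and neither can a difference in stage from one of genotype, since all larvae were collected at 1 time.

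Few genes differed beyond their bounds. Among the 12563 genes, 70 were higher in the transgenic line with bounds that did not overlap (0.557%) and 16 were lower (0.127%). The median difference in log2(FPKM + 1), transgenic line minus wild type, was 0.00, and the lower and upper quartiles of the genes lay at −0.51 and 0.50. For 8044 genes that reached 5 FPKM in both genotypes, the median log2 ratio of FPKM was 0.02, and log2 FPKM had a Pearson correlation of 0.914 across genes and a Spearman correlation of 0.859. Genes are not replicates, both columns share annotation and gene length, and these correlations only describe the spread in the plot of all genes.

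**Figure D1:**
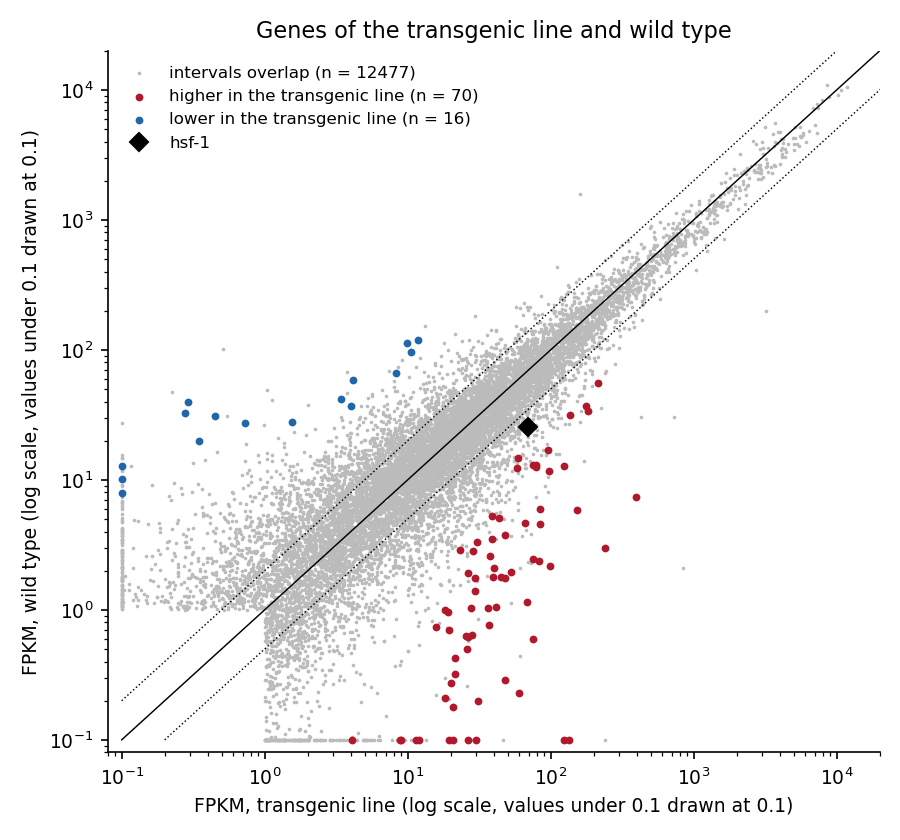
FPKM of 12563 genes in the transgenic line (x axis) and in wild type (y axis), both on log scales, with values under 0.1 drawn at 0.1. Red and blue points are the 70 genes higher and the 16 genes lower in the transgenic line with bounds that do not overlap, the diamond is hsf-1, the solid line marks equal values and the dotted lines a 2-fold difference; most red points lie at low wild-type values.

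Looser rules gave larger counts. When the difference had only to exceed the 2 half-widths combined in quadrature (the combined-width rule), 250 genes were higher (1.99%) and 133 lower (1.06%). By a difference of at least 2-fold alone, 1875 were higher (14.9%) and 1953 lower (15.5%). The same rules were read against the deposited test where one exists, in the mutant against wild type: of the 117 genes called there by bounds that did not overlap, 81 (69.2%) had a q of at most 0.05 in the authors' deposited table, against 299 of 469 (63.8%) by the combined-width rule and 600 of 3901 (15.4%) by 2-fold alone. Among tested genes that met the FPKM rule in the mutant or wild type, 735 had such a q. The bounds rule found 11% of these, so a gene that is not called here is not shown to be equal in the 2 genotypes.

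How close a gene lay depended on its level. Of 3010 genes with a mean FPKM of 1 to 5, 55.4% lay within 2-fold of wild type, and the share was 67.8% of 3945 genes at 5 to 20, 80.4% of 3625 at 20 to 100 and 93.5% of 1488 at 100 and over. All 100 of the most abundant genes lay within 2-fold. Over the same bins the median half-width of the bounds, as a percentage of the value, was 105, 92.6, 73.8 and 53.98 in the transgenic line, and 107, 91.6, 73.4 and 54.4 in wild type. The share of genes within 2-fold was thus highest where the bounds were narrowest.

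**Figure D2:**
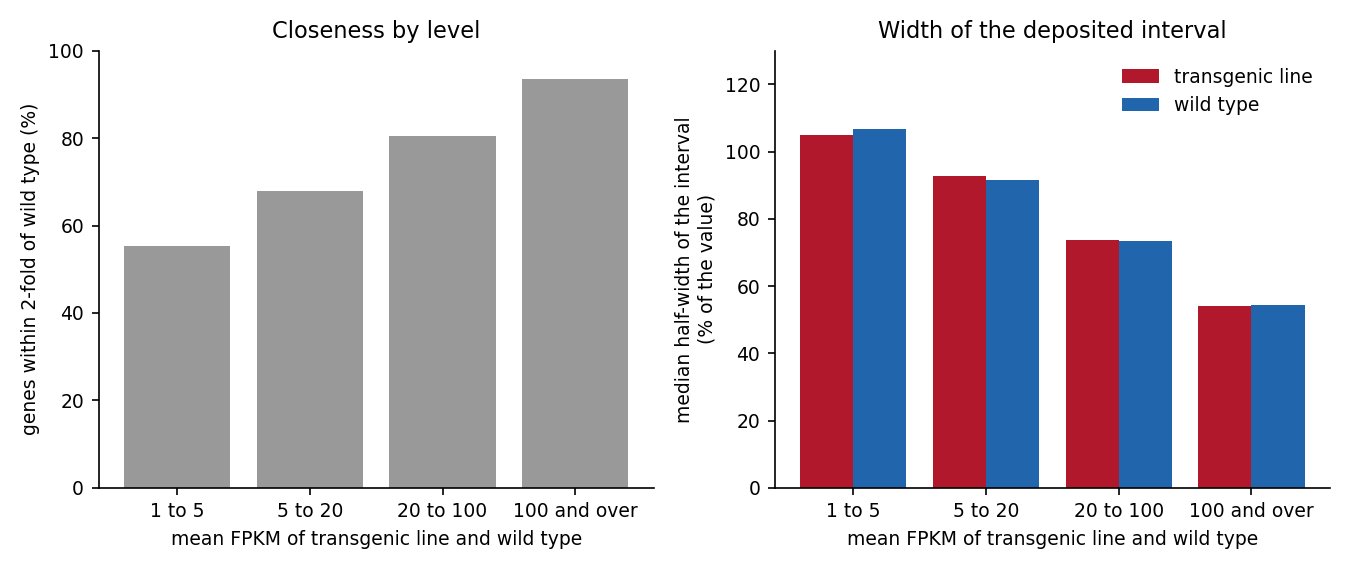
Left, percentage of genes whose FPKM in the transgenic line lies within 2-fold of wild type, in 4 bins of the mean FPKM of both genotypes; right, median half-width of the deposited bounds as a percentage of the value in the same bins, red for the transgenic line and blue for wild type. The share within 2-fold goes from 55.4% in the lowest bin to 93.5% in the highest, and the half-widths shrink alike in both genotypes.

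The targeted gene came out above wild type. On chromosome I, 11953502 to 11961977 of the build ce10, hsf-1 (Y53C10A.12) was at 69.3 FPKM (29.4 to 109) in the transgenic line, 21.4 (6.52 to 36.4) in the mutant and 25.3 (7.62 to 43.1) in wild type. In the transgenic line it was 2.74-fold the wild-type value, a difference of 1.42 on the log2(FPKM + 1) scale, and it passed the combined-width rule while the bounds overlapped. RNA of the transgene and RNA from what the deletion leaves both count as hsf-1, so the value is no measure of either alone. Of the 10 genes next to hsf-1, 5 on each side, none was called, against 0.557% of all genes higher and 0.127% lower. Among these neighbours, Y53C10A.2, hsf-2 and Y53C10A.15 did not meet the FPKM rule and could not be called. So few genes without a call say little. R06C1.6, named for its position, was at 16.3 FPKM in the transgenic line, 51.4 in the mutant and 20.3 in wild type.

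Transcripts for HSF-1 and for proteins known to act on it or beside it had bounds that overlapped wild type. Of the 8 that met the rule, 5 lay within 2-fold, 2 were at least 2-fold higher and 1 lower, against 14.9% and 15.5% of all genes. Of 10 listed genes, 8 met the rule, none was called (background 0.557% higher and 0.127% lower), and the median log2 difference was 0.31 against 0.00 over all genes, or 0.11 over the 5 genes with a locus of their own. Products of hsb-1, ddl-1 and ddl-2 hold HSF-1 inactive: hsb-1 was at 54.3 FPKM in the transgenic line, 39.0 in the mutant and 42.0 in wild type, and ddl-1 and ddl-2 were at 3.76 and 1.07 FPKM in the transgenic line and at 3.42 and 0.575 in wild type. The FOXO transcription factor gene daf-16 was at 120.4 FPKM in the transgenic line, 149 in the mutant and 101 in wild type, and cdc-48.1, for the p97 segregase ATPase, at 173 FPKM in the transgenic line, 206 in the mutant and 201 in wild type. hsf-2 and marc-1 were listed at 0 in both genotypes.

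A pair of regulators stood further off. hpl-2, which encodes a heterochromatin protein of the HP1 family, was at 56.8 FPKM (11.8 to 102) in the transgenic line, 70.7 (17.2 to 124) in the mutant and 214 (63.5 to 365) in wild type. It was 3.77-fold lower in the transgenic line than in wild type and passed the combined-width rule, its bounds overlapped, and the mutant value lay on the side of the transgenic line. pqm-1, a zinc finger transcription factor gene, was at 42.2 FPKM (9.44 to 74.97) in the transgenic line, 86.8 (29.5 to 144) in the mutant and 20.0 (0.624 to 39.5) in wild type, again with overlapping bounds.

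Abundant chaperone genes of the cytosol overlapped wild type in the transgenic line, also where the mutant was far lower. The comparisons of the transgenic line and of the mutant share the wild-type value, so the 3 levels are only set side by side. hsp-1, the constitutive Hsp70 gene, was at 2819.7 FPKM (1827 to 3813) in the transgenic line, 379 (202 to 556) in the mutant and 2492 (1587 to 3399) in wild type. hsp-110, whose product exchanges nucleotides on Hsp70, was at 253 FPKM (145 to 361) in the transgenic line, 69.2 (32.3 to 106) in the mutant and 177 (94.7 to 259) in wild type. The transgenic line was at 1.13-fold the wild-type value for hsp-1 and 1.43-fold for hsp-110, and the bounds overlapped in both.

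Of the 11 measured genes on the Hsp70 and Hsp110 list of 12, none was called and 7 lay within 2-fold. Their median log2 difference of −0.12 had no stable direction, at −0.51 over 9 genes with a minimum FPKM of 5 and 0.18 over 5 genes that share no locus. sti-1, for the adaptor that links Hsp70 to Hsp90, was at 20.0 FPKM (4.45 to 35.4) in the transgenic line, 6.38 (0.649 to 12.15) in the mutant and 47.8 (16.8 to 78.7) in wild type. It was thus 2.39-fold lower than wild type, with bounds that overlapped. bag-1, for a nucleotide exchange factor, was at 37.9 FPKM in the transgenic line, 20.6 in the mutant and 90.2 in wild type, while hip-1 was at 102 FPKM in the transgenic line, 61.5 in the mutant and 111 in wild type and the ubiquitin ligase gene chn-1 at 7.38 FPKM in the transgenic line, 13.3 in the mutant and 10.9 in wild type.

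J-domain proteins bring clients to Hsp70 and start its ATPase. Of 20 measured members out of 21, none was called, 17 lay within 2-fold and the median was −0.17. dnj-13 was at 401 FPKM (207 to 595) in the transgenic line, 119.6 (49.8 to 189) in the mutant and 384 (190.2 to 579) in wild type, and dnj-19 at 227 FPKM (114 to 339) in the transgenic line, 70.47 (27.4 to 114) in the mutant and 236 (119.6 to 352) in wild type. dnj-12 was at 106 FPKM in the transgenic line, 50.1 in the mutant and 130.2 in wild type, and dnj-11 at 124 FPKM in the transgenic line, 46.7 in the mutant and 102 in wild type. The 3 members at least 2-fold lower were dnj-4, dnj-22 and dnj-24, and dnj-24 was at 40.4 FPKM in the transgenic line, 91.3 in the mutant and 104 in wild type. The locus of dnj-13 in the files is shared by 5 genes.

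The Hsp90 gene, hsp-90 (daf-21 in the files), was at 2802 FPKM (1793 to 3813) in the transgenic line, 385 (213 to 557) in the mutant and 2062 (1217 to 2907) in wild type, in a locus shared by 3 genes. All 10 listed genes of Hsp90 and its cochaperones were measured and lay within 2-fold of wild type, with a median of −0.08. daf-41, for the p23 cochaperone, was at 734 FPKM in the transgenic line, 393 in the mutant and 766 in wild type, and fkb-6, for an immunophilin, at 163 FPKM in the transgenic line, 47.0 in the mutant and 149.8 in wild type. The ATPase activator gene ahsa-1 was at 88.7 FPKM in the transgenic line, 40.5 in the mutant and 94.8 in wild type. cdc-37, whose product brings kinases to Hsp90, was at 216 FPKM in the transgenic line, 101 in the mutant and 147 in wild type, and unc-45, the myosin chaperone gene, at 22.1 FPKM in the transgenic line, 9.58 in the mutant and 14.7 in wild type.

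CCT folds actin and tubulin, and prefoldin hands them over. None of the 14 listed genes was called, 12 lay within 2-fold and the median was −0.01. cct-5 was at 489 FPKM (227 to 752) in the transgenic line, 204 (77.2 to 331) in the mutant and 439 (199.6 to 678) in wild type and cct-7 at 462 FPKM (271 to 654) in the transgenic line, 181 (92.3 to 269) in the mutant and 455 (263 to 646) in wild type. The remaining chaperonin genes cct-1, cct-2, cct-3, cct-4, cct-6 and cct-8 were at 222, 129.9, 64.8, 237, 109 and 70.1 FPKM in the transgenic line, against 162, 139, 108, 274, 129.9 and 64.1 in wild type. Both genes beyond 2-fold were prefoldin subunits and lay on opposite sides: pfd-5 at 377 FPKM in the transgenic line, 90.4 in the mutant and 163 in wild type, and pfd-6 at 76.5 FPKM in the transgenic line, 77.5 in the mutant and 189.7 in wild type.

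**Figure D3:**
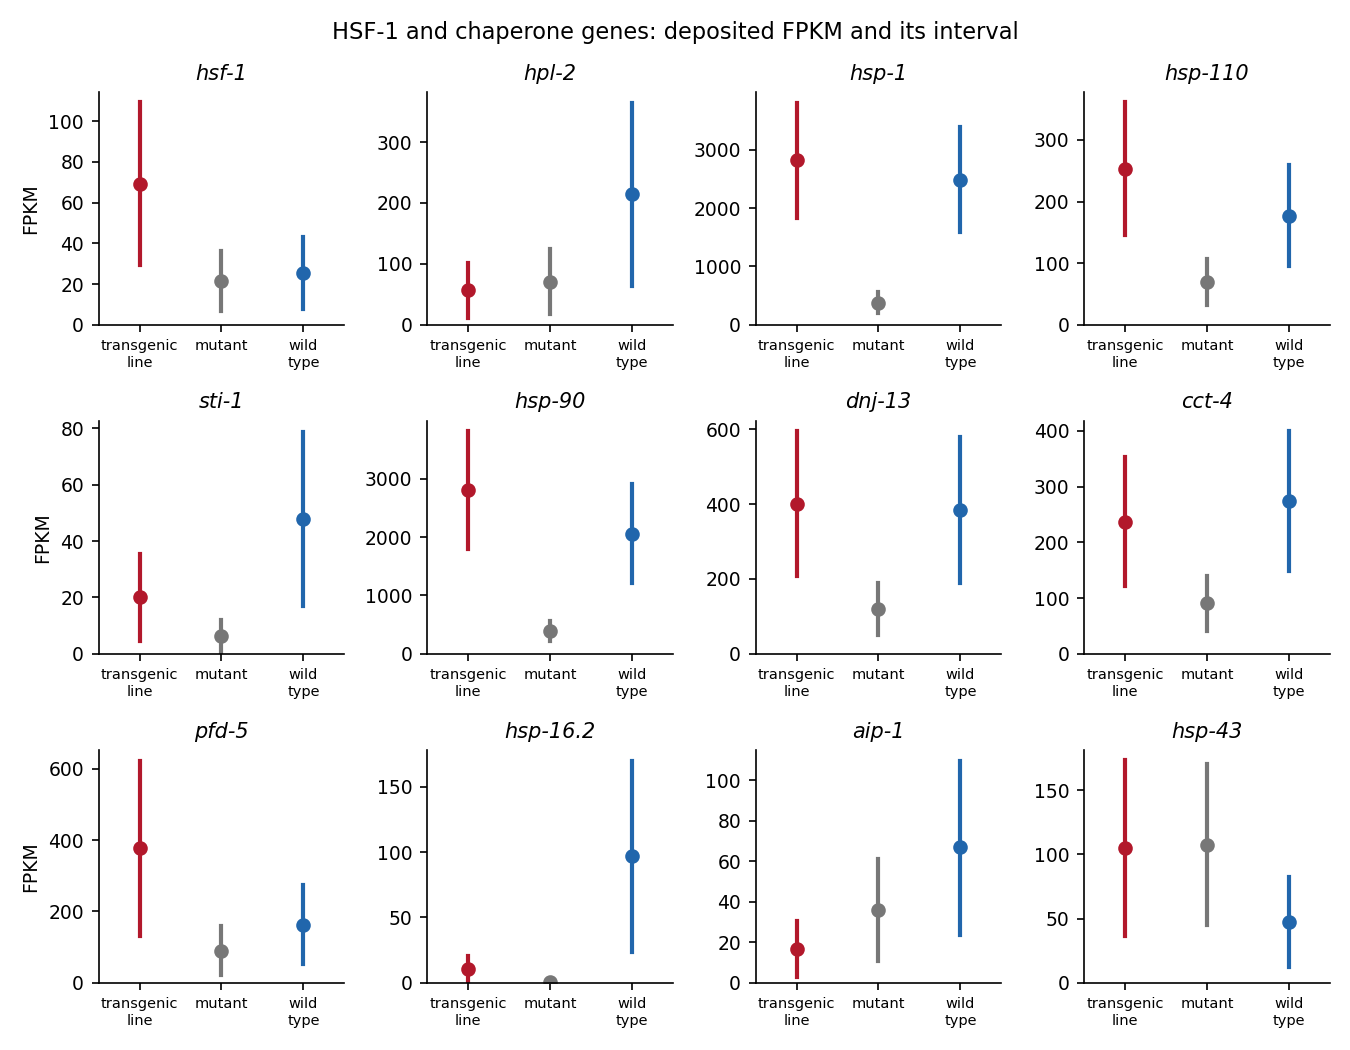
Deposited FPKM of 12 genes (points) with the deposited bounds (lines) in the transgenic line (red), the mutant (grey) and wild type (blue), on linear axes from 0. In hsp-1, hsp-90, dnj-13 and cct-4 the transgenic line and wild type overlap above the mutant, hsp-16.2 is the 1 gene here whose bounds in the transgenic line and wild type do not overlap, and in hpl-2 the transgenic line and the mutant lie together.

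The stress-inducible chaperone genes were lower in part. hsp-16.2, a small heat shock protein gene that is among the most strongly heat-induced in worms, was at 10.5 FPKM (0.359 to 20.7) in the transgenic line, 0.857 (0 to 2.88) in the mutant and 97.1 (23.2 to 169.6) in wild type. It was 9.27-fold lower in the transgenic line than in wild type (log2 difference −3.10) with bounds that did not overlap, and it was the 1 chaperone gene called. In the authors' deposited table the mutant, lower still, had a q of 0.437 against wild type for hsp-16.2. That q uses the same wild-type value. The deposited locus of hsp-16.2 holds 4 genes including hsp-16.41, and hsp-16 copies are nearly identical, so the split of reads between copies is uncertain. The value in wild type, without a named heat shock, rests on 3 combined libraries, whose single values are not used here.

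Of the 11 listed heat-inducible genes, 6 met the rule, 1 was lower, 0 were higher and 4 were at least 2-fold lower. Over all genes 0.127% were called lower, 0.557% were called higher and 15.5% were at least 2-fold lower. The list had a median log2 difference of −1.54, or −0.76 over the 2 genes that share no locus. aip-1, which encodes an arsenite-inducible regulator of the proteasome, was at 16.6 FPKM (2.81 to 30.3) in the transgenic line, 36.03 (10.8 to 61.1) in the mutant and 67.0 (23.5 to 109.7) in wild type and passed the combined-width rule. hsp-70, the inducible Hsp70 gene, was at 0.588 FPKM in the transgenic line, 0.176 in the mutant and 8.05 in wild type, and hsp-16.41 at 1.76 FPKM in the transgenic line, 0.414 in the mutant and 5.02 in wild type, both with overlapping bounds. hsp-17 was at 174 FPKM in the transgenic line, 186 in the mutant and 149.8 in wild type and F44E5.5 at 1.12 FPKM in the transgenic line, 0 in the mutant and 0.566 in wild type. A value of 0 was listed in all 3 genotypes for the copies hsp-16.49, hsp-16.48, hsp-16.11 and hsp-16.1.

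Small heat shock genes with other patterns showed no calls among 7 measured of 11 listed, 5 of them within 2-fold, with a median of −0.56. hsp-25 was at 795 FPKM in the transgenic line, 1239 in the mutant and 944 in wild type, and hsp-12.2 at 185 FPKM in the transgenic line, 144 in the mutant and 273 in wild type. hsp-43 was at 105 FPKM (36.4 to 173) in the transgenic line, 108 (44.7 to 171) in the mutant and 47.3 (12.5 to 82.1) in wild type, 2.22-fold of wild type with overlapping bounds. sip-1 was at 23.3 FPKM in the transgenic line, 88.7 in the mutant and 15.8 in wild type, which put the transgenic line near wild type and the mutant above both.

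In other compartments the lists lay at or slightly above wild type with no call. All 23 genes for chaperones and stress signalling of the endoplasmic reticulum lay within 2-fold, with a median of 0.23. The disulphide isomerase gene pdi-2 was at 3307 FPKM (2094 to 4522) in the transgenic line, 2301 (1369.9 to 3235) in the mutant and 2323 (1423 to 3224) in wild type, and the calreticulin gene crt-1 at 2383 FPKM in the transgenic line, 1705 in the mutant and 1858 in wild type. Of 19 genes on the mitochondrial list, 18 lay within 2-fold, with a median of 0.20. Its members included phb-1, for a prohibitin, at 1589.6 FPKM in the transgenic line, 692 in the mutant and 1369.5 in wild type, hsp-60 at 667 FPKM in the transgenic line, 208 in the mutant and 717 in wild type and hsp-6 at 662 FPKM in the transgenic line, 204 in the mutant and 513 in wild type. trap-1 is on that list, but by this symbol it is in worms a gene of the translocon-associated complex of the endoplasmic reticulum, and it was at 2697 FPKM in the transgenic line, 1302 in the mutant and 2345 in wild type.

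Protein synthesis and degradation lists held no call either. Over all genes 0.557% were called higher and 0.127% lower, so 0 calls in lists of this size says little. Of all genes with a mean FPKM of 100 and over, 93.5% lay within 2-fold. Of 82 cytosolic ribosomal protein genes, 80 were measured, all within 2-fold, with a median of 0.02. rpl-18A (rpl-20 in the files) was at 11778 FPKM in the transgenic line, 12155 in the mutant and 10479 in wild type, and rps-15 at 10678 FPKM in the transgenic line, 10245 in the mutant and 10009 in wild type. The proteasome list had 32 of 33 genes measured, all within 2-fold, with a median of 0.08, and its most abundant members pas-5 and pas-6 were at 347 and 295 FPKM in the transgenic line and at 389 and 304 in wild type. For autophagy and the lysosome, 31 of 32 genes were measured, 26 lay within 2-fold and the median was 0.01. The ubiquitin fusion gene ubq-2 was at 4319 FPKM in the transgenic line, 3529 in the mutant and 3490.2 in wild type, and the aspartic protease gene asp-1 at 2203 FPKM in the transgenic line, 852 in the mutant and 2003 in wild type.

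Metabolic lists held no call. For fatty acid synthesis and desaturation, 25 of 26 genes were measured, 23 lay within 2-fold and the median was 0.20. The elongase gene elo-1 was at 782 FPKM in the transgenic line, 284 in the mutant and 625 in wild type. fat-2, for a desaturase that makes linoleic acid, was at 837 FPKM in the transgenic line, 859 in the mutant and 541 in wild type, with the transgenic line and the mutant alike above wild type. Fatty acid oxidation and lipases had 27 of 34 genes measured, 23 within 2-fold, with a median of 0.14. There acdh-1, of propionate breakdown, was at 1278 FPKM in the transgenic line, 366 in the mutant and 1433 in wild type and alh-8 at 779 FPKM in the transgenic line, 451 in the mutant and 706 in wild type.

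The methionine cycle supplies the methyl donor S-adenosylmethionine. Of 19 genes 17 were measured, 15 lay within 2-fold and the median was 0.08. ahcy-1, which clears S-adenosylhomocysteine, was at 5815 FPKM (4105 to 7525) in the transgenic line, 1319 (763 to 1876) in the mutant and 4664 (3001 to 6326) in wild type, and the S-adenosylmethionine synthetase gene sams-1 at 1361 FPKM in the transgenic line, 355 in the mutant and 1235 in wild type. Of 45 oxidative phosphorylation genes 44 were measured, 39 lay within 2-fold and the median was 0.03. The ATP synthase subunit gene atp-1 was at 2423 FPKM in the transgenic line, 1841 in the mutant and 2098 in wild type, and atp-5 at 1716 FPKM in the transgenic line, 1229 in the mutant and 1287 in wild type. Only 2 of 6 vitellogenin (yolk protein) genes met the rule, vit-2 at 1.13 FPKM in the transgenic line, 1.74 in the mutant and 0.761 in wild type and vit-6 at 1.19 FPKM in the transgenic line, 1.22 in the mutant and 0.694 in wild type, and their median was 0.32.

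Genes of the cuticle and the moult lay near or slightly above wild type. Of 181 cuticle collagen genes, 109 met the rule, 0 were called, 89 lay within 2-fold and the median was 0.14. sqt-3 was at 4017 FPKM (2368 to 5586) in the transgenic line, 3938 (2420.1 to 5453) in the mutant and 2682 (1529 to 3725) in wild type, and col-17 at 1941 FPKM in the transgenic line, 2029 in the mutant and 1541 in wild type. All 34 moulting genes were measured, 32 within 2-fold, with a median of 0.25. noah-1, of the apical extracellular matrix, was at 1379 FPKM in the transgenic line, 1159 in the mutant and 1012 in wild type, and mlt-11, for a protease inhibitor, at 1224 FPKM in the transgenic line, 886 in the mutant and 639 in wild type.

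Hedgehog-related genes encode secreted proteins, many of them made in the epidermis. Of 59 listed, 39 met the rule, 1 was higher, against 0.557% of all genes, 0 were lower and 30 lay within 2-fold. The median was 0.14, or −0.07 with a minimum FPKM of 5. The called gene was grd-11 (K02E2.2, chromosome V, 20356771 to 20365687), at 26.6 FPKM (6.38 to 46.9) in the transgenic line, 2.16 (0.105 to 4.26) in the mutant and 0.620 (0 to 1.54) in wild type. In the transgenic line it was 42.9-fold the wild-type value, while the lower bound of wild type was 0. This gene met the FPKM rule through the transgenic line alone.

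**Figure D4:**
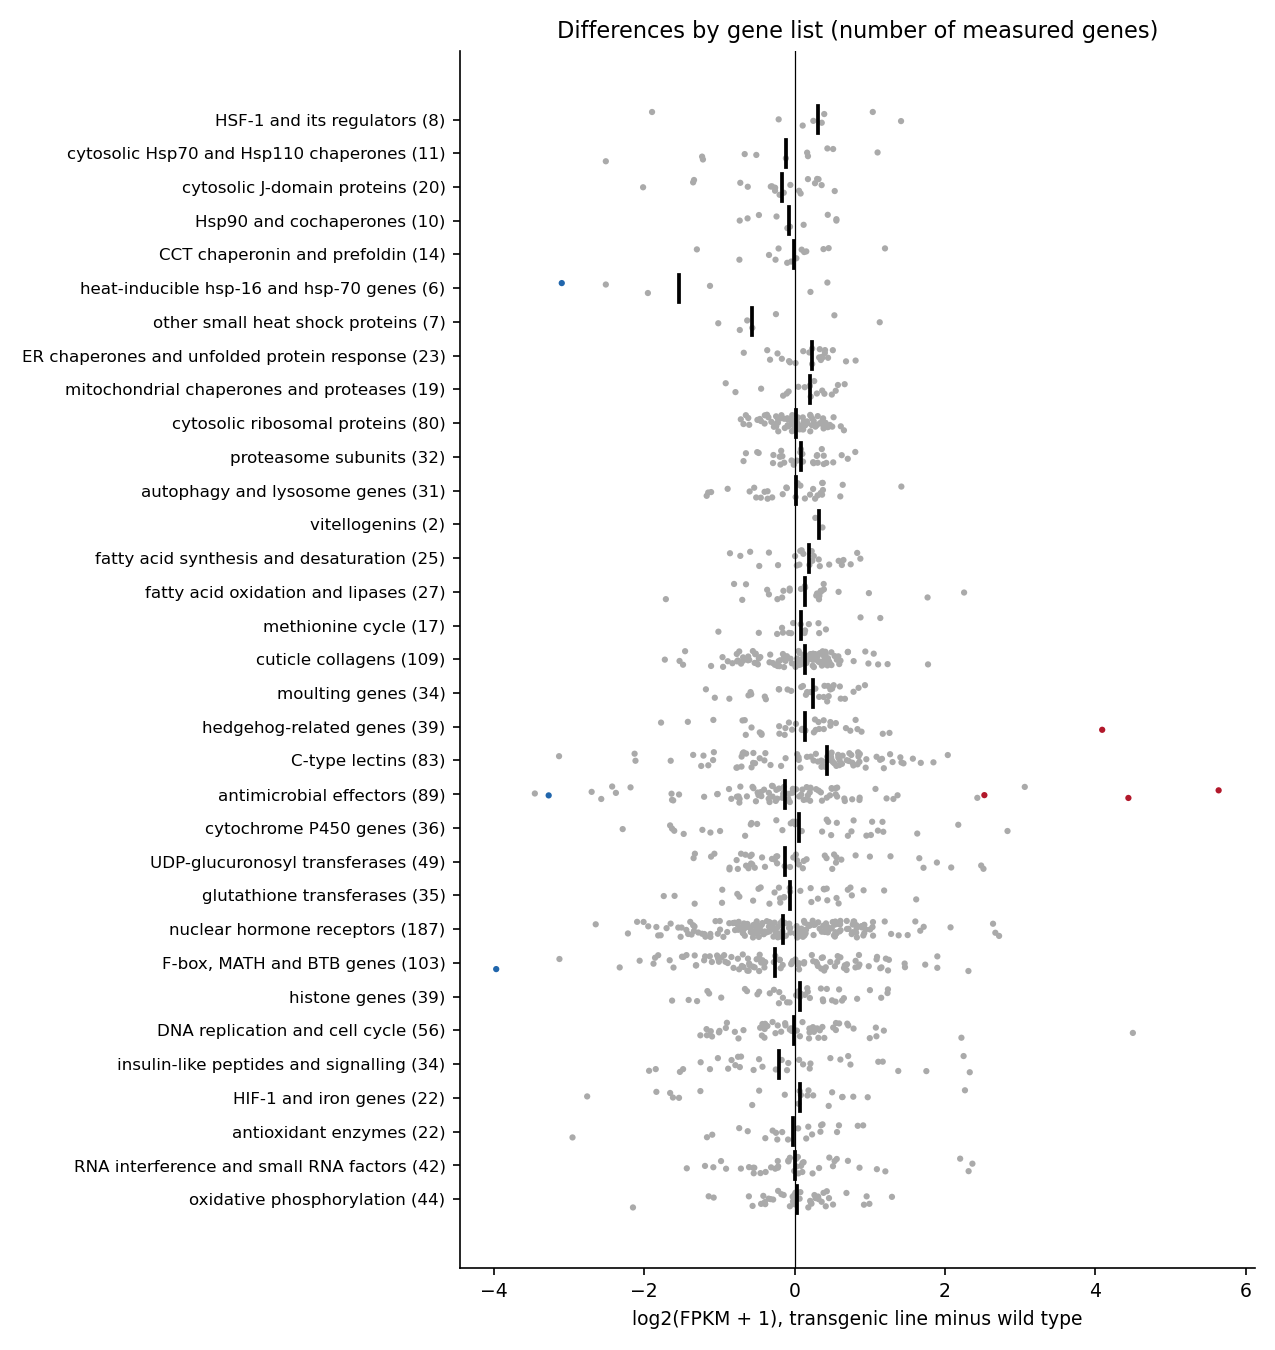
Differences in log2(FPKM + 1), transgenic line minus wild type, for the genes of 33 lists that met the rule (points; number of genes in parentheses), with the median of each list as a black bar. Red and blue points are genes higher and lower with bounds that do not overlap; 4 lists hold such a gene, and the heat-inducible genes have a median of −1.54.

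Among the 33 lists, the defence list held 4 of the calls, in both directions, and of these only ilys-3 is not a dod or dct gene. This list joins lysozymes, saposin-like and antimicrobial peptide genes with dod and dct genes, which were named for their dependence on the FOXO factor DAF-16. Of 150 genes, 89 met the rule, 3 were higher and 1 was lower, against 0.557% and 0.127% of all genes, and 61 lay within 2-fold, with a median of −0.13. ilys-3 and dct-15 met the FPKM rule through the transgenic line alone, so these counts give no measure of the list. ilys-3 (C45G7.3, chromosome IV, 2464470 to 2465439), an invertebrate-type lysozyme gene, was at 60.2 FPKM (7.38 to 113) in the transgenic line, 1.09 (0 to 2.01) in the mutant and 0.227 (0 to 0.670) in wild type. dct-15 (W08D2.3) was at 37.3 FPKM (4.39 to 70.4) in the transgenic line, 2.57 (0 to 5.41) in the mutant and 0.766 (0 to 1.504) in wild type, and dod-24 (C32H11.12) at 79.0 FPKM (24.7 to 133) in the transgenic line, 50.5 (17.8 to 83.2) in the mutant and 12.9 (1.87 to 23.99) in wild type. In ilys-3 and dct-15 the mutant lay near wild type, whereas in dod-24 it lay between the other 2 genotypes. Against wild type the mutant had a q of 0.0139 for dod-24 and 0.542 for dct-15 in the authors' deposited table, which uses the same wild-type value.

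Lower in the transgenic line was dct-5 (F07F6.5), at 3.45 FPKM (0 to 6.87) in the transgenic line, 8.80 (0.859 to 16.6) in the mutant and 41.9 (8.73 to 75.03) in wild type. C-type lectin genes, of which 83 of 255 met the rule, had 0 calls, 45 within 2-fold and a median of 0.44, which was 0.21 with no minimum FPKM. clec-63 was at 1404 FPKM (839 to 1969) in the transgenic line, 1049 (604 to 1493) in the mutant and 724 (415 to 1033) in wild type and passed the combined-width rule, and clec-180 was at 314 FPKM in the transgenic line, 283 in the mutant and 209 in wild type.

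No gene of the detoxification lists was called, against 0.557% of all genes higher and 0.127% lower. Of 76 cytochrome P450 genes 36 met the rule, and 15 lay within 2-fold, with a median of 0.05. At least 2-fold higher were 13 and lower 8, against 14.9% and 15.5% of all genes. Only 21 of the 36 reached 5 FPKM in either genotype, and of all genes with a mean of 1 to 5 FPKM 55.4% lay within 2-fold. cyp-35A2 was at 36.9 FPKM in the transgenic line, 9.32 in the mutant and 28.4 in wild type and cyp-35C1 at 18.4 FPKM in the transgenic line, 25.5 in the mutant and 41.2 in wild type. UDP-glucuronosyl transferases had 49 of 67 genes measured, 29 within 2-fold, with a median of −0.13, and ugt-22 was at 80.1 FPKM in the transgenic line, 23.1 in the mutant and 121 in wild type and ugt-50 at 62.3 FPKM in the transgenic line, 30.9 in the mutant and 30.6 in wild type. Glutathione transferases had 35 of 49 measured, 28 within 2-fold, with a median of −0.07, and gst-1 was at 194 FPKM in the transgenic line, 135 in the mutant and 184 in wild type and gst-36 at 152 FPKM in the transgenic line, 176 in the mutant and 158 in wild type.

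Among regulatory families, 1 gene was called. Of 280 nuclear hormone receptor genes 187 met the rule, 0 were called, 116 lay within 2-fold and the median was −0.16, with nhr-97 at 155 FPKM in the transgenic line, 189 in the mutant and 152 in wild type and nhr-91 at 156 FPKM in the transgenic line, 145 in the mutant and 107 in wild type. The F-box, MATH and BTB families, adaptors of cullin ubiquitin ligases in part, had 103 of 463 genes measured, 0 higher, 1 lower against 0.127% of all genes, and 45 within 2-fold. The median of −0.26 was 0.05 with no minimum FPKM. The gene lower there was btb-19 (F57C2.2), described with the largest differences, which met the FPKM rule through wild type alone. RNA interference and small RNA factors had 42 of 44 genes measured, 0 called and 31 within 2-fold, with a median of 0.01, and the Argonaute genes alg-1 and ppw-2 were at 185 and 45.8 FPKM in the transgenic line and at 128 and 31.8 in wild type.

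Growth and signalling lists had 0 calls. DNA replication and cell cycle genes (56 of 57 measured) had 43 within 2-fold and a median of 0.00. The sliding clamp gene pcn-1 was at 282 FPKM in the transgenic line, 268 in the mutant and 246 in wild type, and rnr-2, of ribonucleotide reductase, at 59.0 FPKM in the transgenic line, 69.1 in the mutant and 134 in wild type, where the transgenic line lay with the mutant. Histone genes (39 of 79) had 28 within 2-fold and a median of 0.07, with his-6 at 1456 FPKM in the transgenic line, 526 in the mutant and 965 in wild type and his-37 at 862 FPKM in the transgenic line, 754 in the mutant and 995 in wild type. Histone copies are nearly identical, so single values are uncertain.

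Insulin-like peptides and insulin signalling (34 of 48) had 18 within 2-fold and a median of −0.21. ins-5 was at 120.1 FPKM in the transgenic line, 131 in the mutant and 71.4 in wild type, and daf-28 at 85.8 FPKM in the transgenic line, 32.8 in the mutant and 82.2 in wild type. HIF-1 and iron genes (22 of 24) had 15 within 2-fold and a median of 0.08, with the ferritin gene ftn-2 at 880.2 FPKM in the transgenic line, 674 in the mutant and 839.9 in wild type and the hypoxia factor gene hif-1 at 366 FPKM in the transgenic line, 281 in the mutant and 234.7 in wild type. Antioxidant enzymes (22 of 25) had 18 within 2-fold and a median of −0.02, with the peroxiredoxin gene prdx-2 at 1870.4 FPKM in the transgenic line, 1581 in the mutant and 1445 in wild type and the methionine sulphoxide reductase gene msra-1 at 721 FPKM in the transgenic line, 263 in the mutant and 945 in wild type. In all, 29 of the 33 lists held no call, and 27 had a median within 0.25 of 0. With 0.557% of all genes called higher and 0.127% lower, the lack of a call is no result about a list.

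The called genes with the largest differences were mostly outside these lists. Over the 70 genes called higher, the median FPKM was 39.2 in the transgenic line, 4.40 in the mutant and 1.76 in wild type. Wild type was under 5 in 53 of them, under 1 in 29 and listed at 0 in 10, and its lower bound was 0 in 52. Genes were chosen here by the difference between the transgenic line and wild type, so these levels describe the choice.

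The 12 largest differences on the high side belonged to C11D2.1, T22E5.7, F52A8.3, ilys-3, F45G2.7, C48B4.6, oac-27, C16A3.2, F46C5.1, sdz-19, W08F4.10 and T24E12.10. C11D2.1 was at 134 (2.43 to 168) FPKM in the transgenic line and was listed at 0 in the mutant and in wild type, and T22E5.7 was at 124 (2.40 to 161) in the transgenic line, 2.16 (0 to 4.31) in the mutant and 0 in wild type. Both values lie near their upper bound, and neither identifier matched the gene tables, so no product can be given. F52A8.3 (chromosome I, 7322328 to 7323588) was at 241 FPKM (26.6 to 456) in the transgenic line, 6.17 (0 to 16.21) in the mutant and 2.97 (0 to 5.91) in wild type, the highest of the 12 in FPKM after C48B4.6, which was at 396 FPKM (122.2 to 671) in the transgenic line, 22.1 (0 to 45.5) in the mutant and 7.43 (0 to 18.7) in wild type in a locus shared by 2 genes.

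F45G2.7 was at 75.7 FPKM (14.1 to 137) in the transgenic line, 4.05 (0.172 to 7.76) in the mutant and 0.599 (0 to 1.55) in wild type, and F46C5.1 at 99.2 FPKM (23.4 to 175) in the transgenic line, 9.37 (1.30 to 17.4) in the mutant and 2.16 (0 to 4.49) in wild type. oac-27, for a member of the O-acyltransferase family, was at 47.8 FPKM (13.4 to 82.2) in the transgenic line, 0.894 (0 to 1.91) in the mutant and 0.286 (0 to 0.847) in wild type. In these 3 genes the bounds of the mutant lay below those of the transgenic line as well. C16A3.2 was at 68.0 FPKM in the transgenic line, 2.45 in the mutant and 1.16 in wild type and T24E12.10 at 31.1 FPKM in the transgenic line, 1.39 in the mutant and 0.201 in wild type, while sdz-19 and W08F4.10 were at 30.1 and 26.4 FPKM in the transgenic line and were listed at 0 in wild type.

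Of the 70 genes, 4 reached 20 FPKM in wild type, and they are named here after their values were seen. patr-1, whose product acts in mRNA decapping and P-bodies, was at 213 FPKM (119.5 to 306) in the transgenic line, 50.6 (22.8 to 78.4) in the mutant and 55.6 (24.8 to 86.5) in wild type. rhr-1, for an ammonium transporter of the Rh family, was at 175 FPKM (69.6 to 281) in the transgenic line, 27.9 (7.06 to 48.8) in the mutant and 37.2 (7.53 to 67.1) in wild type. fcmt-1 was at 182.9 FPKM in the transgenic line, 50.1 in the mutant and 34.01 in wild type, in a locus shared by 2 genes, and nstp-5 at 135 FPKM in the transgenic line, 46.9 in the mutant and 31.6 in wild type. In all 4 the mutant lay nearer to wild type than to the transgenic line.

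Further genes called higher, also named after their values were seen and chosen because their products have known roles, follow with no theme tested. They include fog-1, for an RNA-binding protein of sex determination, at 66.4 FPKM in the transgenic line, 6.28 in the mutant and 4.63 in wild type, and dsb-1, needed for meiotic double-strand breaks, at 52.9 FPKM in the transgenic line, 5.602 in the mutant and 1.97 in wild type. rbbp-5, for a subunit of the histone H3K4 methyltransferase complex, was at 39.4 FPKM in the transgenic line, 5.32 in the mutant and 1.79 in wild type. Called as well were daf-38, for a receptor of dauer pheromone, at 97.2 FPKM in the transgenic line, 8.34 in the mutant and 11.7 in wild type, acr-19, for an acetylcholine receptor subunit, at 36.6 FPKM in the transgenic line, 2.54 in the mutant and 1.03 in wild type, and calf-1, for a calcium channel localisation factor, at 38.8 FPKM in the transgenic line, 4.52 in the mutant and 3.53 in wild type. Of 58 measured chemoreceptor genes out of 1335 listed, a family counted after seeing them, 3 were higher (srg-62, srab-9 and srx-67), which is 5.17% against 0.557% of all genes, and 1 was lower (srw-85), 1.72% against 0.127%. The 3 higher genes were at 0.272, 0 and 0.179 FPKM in wild type and met the FPKM rule through the transgenic line alone. srw-85 met it through wild type alone, so these shares are raised by the rule and give no measure of the family.

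The 16 genes called lower had a median FPKM of 1.14 in the transgenic line, 4.72 in the mutant and 34.9 in wild type. The transgenic line was under 1 in 8 of them and listed at 0 in 3, and its lower bound was 0 in 11. The 12 largest were srw-85, aqp-10, pot-2, cyn-2, btb-19, Y38H6C.25, C52B11.5, piit-1, F40E3.7, lido-7, dct-5 and hic-1.

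srw-85 (C25F9.1, chromosome V, 19429411 to 19431658), a chemoreceptor family gene, was at 0.292 FPKM (0 to 0.870) in the transgenic line, 78.2 (30.4 to 126) in the mutant and 39.4 (7.78 to 71.0) in wild type. aqp-10 (ZK1321.3, chromosome II, 9768392 to 9769793), an aquaporin gene, was at 0.278 FPKM (0 to 0.941) in the transgenic line, 43.4 (12.24 to 74.5) in the mutant and 32.97 (3.36 to 62.7) in wild type. These 2 genes were near 0 in the transgenic line alone, and in both the bounds of the mutant lay above those of the transgenic line.

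Others were low in the mutant as well. pot-2 (F57C2.3, chromosome II, 14524098 to 14525036), for a protein that binds single-stranded telomere DNA, was at 0.452 FPKM (0 to 1.26) in the transgenic line, 2.68 (0 to 5.30) in the mutant and 30.7 (4.04 to 57.5) in wild type. cyn-2, a cyclophilin gene, was at 0.728 FPKM (0 to 1.57) in the transgenic line, 2.15 (0 to 4.24) in the mutant and 27.5 (2.83 to 52.0) in wild type. C52B11.5 was at 4.17 FPKM (0.101 to 8.21) in the transgenic line, 3.97 (0.304 to 7.61) in the mutant and 59.1 (14.5 to 104) in wild type, and lido-7 (K08A2.4 in the files) at 9.81 FPKM (1.13 to 18.5) in the transgenic line, 27.4 (8.20 to 46.6) in the mutant and 114 (41.4 to 186) in wild type. In the authors' deposited table the mutant differed from wild type with a q of 0.0139, 0.0403, 0.00249 and 0.00249 for these 4 genes. The q was 0.0343 for btb-19, 0.0423 for piit-1, 0.0255 for dct-5, 0.0583 for hic-1, 0.254 for Y38H6C.25 and 0.399 for F40E3.7. All were chosen by a wild-type value above the transgenic line. The q uses that same wild-type value, so it is no separate support.

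btb-19 (F57C2.2, chromosome II, 14520921 to 14522046) was at 0.346 FPKM (0 to 0.863) in the transgenic line, 0.958 (0 to 1.94) in the mutant and 20.1 (2.16 to 37.9) in wild type. A single gene, btb-20, named for its position, lies between btb-19 and pot-2, and it was at 5.27 FPKM in the transgenic line, 3.05 in the mutant and 1.93 in wild type and was not called. piit-1 (F35B12.4 in the files) was at 1.55 FPKM in the transgenic line, 5.47 in the mutant and 28.01 in wild type and hic-1 (T28B4.4 in the files) at 11.8 FPKM in the transgenic line, 47.8 in the mutant and 119.7 in wild type. Y38H6C.25 and the pseudogene F40E3.7 were listed at 0 in the transgenic line, against 12.8 (0.390 to 25.1) and 10.1 (0.246 to 19.9) FPKM in wild type.

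**Figure D5:**
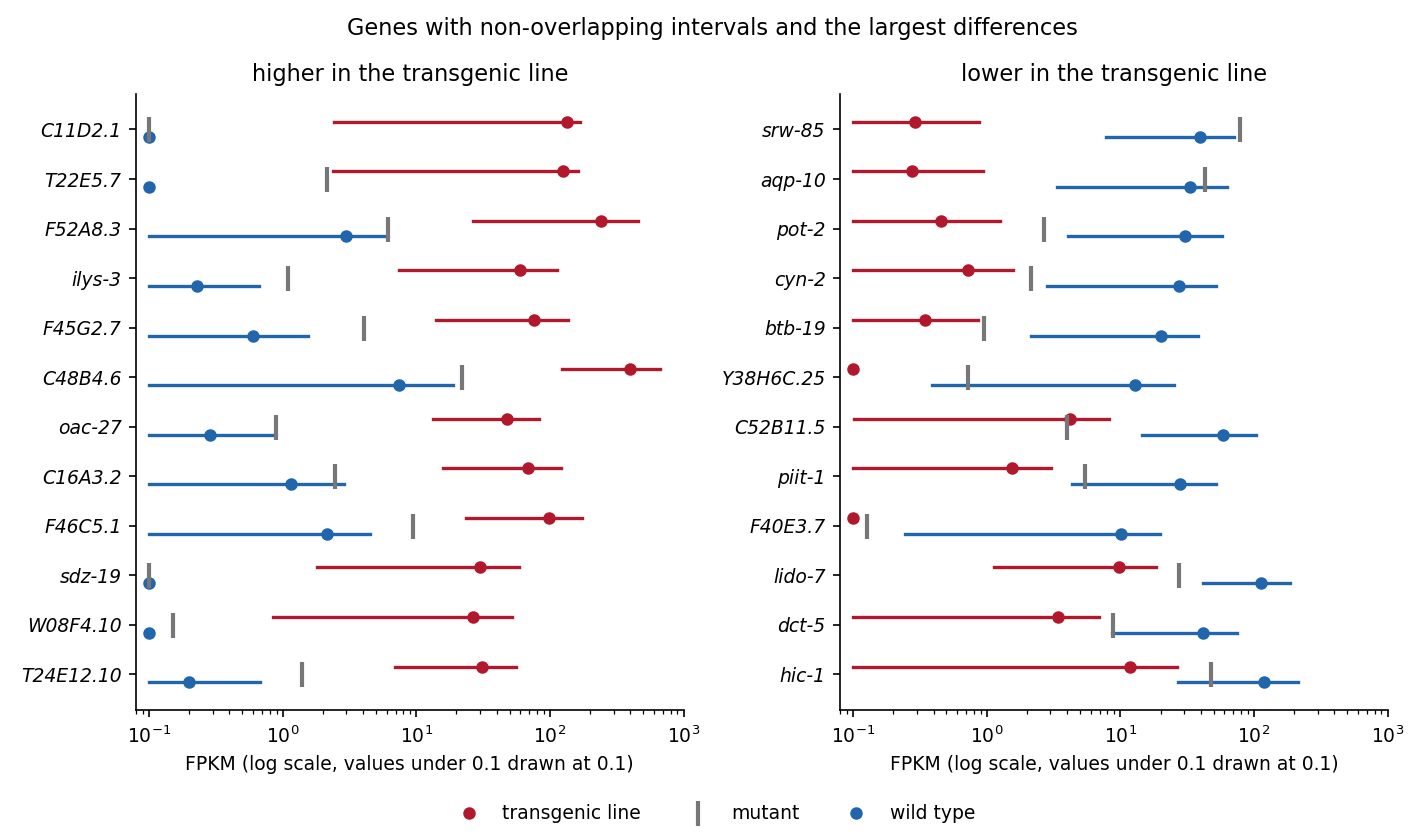
FPKM of the 12 genes with the largest positive (left) and the 12 with the largest negative (right) log2 difference among called genes, on a log scale with values under 0.1 drawn at 0.1. Red points and lines are the value and bounds of the transgenic line, grey marks the value of the mutant, and blue points and lines are wild type; srw-85 and aqp-10 are near 0 in the transgenic line and above 30 in the other 2 genotypes, and pot-2 and cyn-2 are low in the transgenic line and in the mutant.

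By the same bounds rule, the mutant against wild type had 82 of 13185 genes higher (0.622%) and 35 lower (0.265%). Both comparisons use the same wild-type value, so the mutant levels printed here are set beside the others and no overlap of the calls is given. anp-1, named after its values were seen, was the called gene on the high side with a mutant level above that of the transgenic line, at 8.93 FPKM in the transgenic line, 11.6 in the mutant and 0 in wild type, in a locus shared by 4 genes.

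Genes called higher lay on each of chromosomes I to V and X, and genes called lower on all of these but IV. Of the genes called higher, 14 were on chromosome I, 9 on II, 7 on III, 17 on IV, 14 on V and 9 on X, and of those called lower 1, 8, 1, 0, 4 and 2. Chromosome II, with 8 of the 16 lower genes, holds 2057 of the 12563 genes. No called gene was next to another called in the same direction. Protein-coding genes made up 66 of the 70 and 15 of the 16. The median exonic length was 1285.5 bases for 68 genes called higher, 794.5 for the 16 called lower and 1417 for 12296 measured genes.

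More genes passed the combined-width rule with overlapping bounds, 181 higher and 117 lower, and those named here were chosen after their values were seen. glt-1, a glutamate transporter gene, was at 273 FPKM (137 to 409) in the transgenic line, 151 (74.3 to 229) in the mutant and 109 (43.8 to 174) in wild type. dlg-1, for a scaffold of epithelial junctions, was at 156 FPKM (84.3 to 227) in the transgenic line, 90.9 (46.9 to 135) in the mutant and 67.9 (31.8 to 104) in wild type. hbl-1, a heterochronic transcription factor gene of larval timing, was at 87.3 FPKM in the transgenic line, 50.2 in the mutant and 34.9 in wild type, and ins-30 at 53.7 FPKM in the transgenic line, 11.9 in the mutant and 9.87 in wild type. In hbl-1, glt-1 and dlg-1 the mutant lay between the other 2 genotypes.

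On the low side, the peptide genes nlp-25 and nlp-34 were at 13.1 and 21.6 FPKM in the transgenic line, 145 and 99.2 in the mutant and 154 and 133 in wild type. vhl-1, for the ubiquitin ligase subunit that marks HIF-1 for degradation, was at 5.64 FPKM (0.153 to 11.04) in the transgenic line, 8.93 (1.07 to 16.7) in the mutant and 43.9 (9.35 to 78.5) in wild type. sam-10 was at 56.8 FPKM in the transgenic line, 81.4 in the mutant and 153 in wild type, and fbxa-72, an F-box gene, at 22.1 FPKM in the transgenic line, 18.01 in the mutant and 95.3 in wild type. In vhl-1, sam-10 and fbxa-72 the mutant was low too.

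Zero values set a further group apart. 26 genes reached 5 or more in the transgenic line against a listed 0 in wild type, 9 of them called, and 5 were at 0 in the mutant too. The reverse held for 17 genes, 3 of them called, with 2 at 0 in the mutant. No fold is given for these, and a listed 0 does not show that a gene was silent.

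Markers of tissues differed little between the 2 genotypes. The summed FPKM of 10 body wall muscle genes was 9211 in the transgenic line and 8177 in wild type, and that of 8 pharyngeal muscle genes was 605 in the transgenic line and 568 in wild type. For 11 intestinal genes the sum was 4603 in the transgenic line and 4098 in wild type, and for 13 neuronal genes 1803 in the transgenic line and 1702 in wild type. For 8 of 9 epidermal and seam genes it was 697 in the transgenic line and 653 in wild type, and for 5 coelomocyte genes 63.6 in the transgenic line and 57.4 in wild type. None of these genes was called, and the list medians lay between −0.19 and 0.21. The intestinal esterase gene ges-1, picked with its values known, was at 19.4 FPKM in the transgenic line, 5.33 in the mutant and 5.36 in wild type, more than 2-fold above wild type with overlapping bounds.

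Germline and stage marker lists had medians further from 0, in both directions, and the single genes named from them were picked with their values known. Of 14 germline genes 13 were measured, none called, with a sum of 192 in the transgenic line and 209 in wild type and a median of −0.41, and gld-1 and rec-8 were at 51.5 and 3.92 FPKM in the transgenic line and at 24.6 and 11.4 in wild type. Of 10 sperm genes 1 met the rule, msp-31, at 0.558 FPKM in the transgenic line, 2.13 in the mutant and 1.02 in wild type, and 6 were listed at 0 in the transgenic line and 7 in wild type. Dauer genes (7 of 10, summing to 1113 in the transgenic line and 860.1 in wild type, with a median of 0.34) held 1 call, dod-24, against 0.557% of all genes called higher. This is the same dod-24 call already counted in the defence list. daf-7, a dauer-inhibiting TGF-beta gene, was at 23.3 FPKM in the transgenic line, 22.1 in the mutant and 8.91 in wild type. Adult and embryo genes (7 of 10, summing to 227 in the transgenic line and 257 in wild type, with a median of 0.28) held no call. What a shift in stage or tissue share contributes to the called genes was not tested.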

How the data were processed

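RNA-seq of 9 libraries, 3 for each of 3 genotypes, was analysed from deposited tables, with groups taken from the sample titles. The FPKM values and their bounds come from the authors, and the submitters' processing notes name TopHat2, Cuffdiff and the build ce10. Per the file headers there is 1 FPKM per gene and genotype, and the sources used here do not give versions, annotation, filters or the level of the bounds. The p-values and q-values deposited by the authors cover the mutant against wild type. Of the genes they tested, 12615 also met the FPKM rule in the mutant or wild type. The q-values of these were used to describe the rules, and a q is printed for some named genes. FPKM keeps no depth, so the deposited bounds are the only precision given.

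Genes were matched by sequence name, with current symbols for 19879 of 20389 from RefSeq's gene table of WBcel235. Exonic lengths came from Ensembl release 115 and coordinates from the files, where 3279 of the 12563 genes share a locus with another gene. A pseudocount of 1 was added to FPKM before log2 differences, so differences of low genes come out too small, and folds are ratios of FPKM as deposited. Genes were counted by bounds that do not overlap, by the combined-width rule and by a difference of 2-fold. No p-value was computed for the transgenic line. The call rules were tested on simulated data.

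The genes, 33 gene lists and 10 marker lists were chosen with earlier results of these data known. The text names hsf-1, the 12 largest called differences in each direction with an FPKM of at least 5, up to 4 called members of each list or, with none called, the 2 most abundant, and any member of the lists of chaperones or of HSF-1 and its regulators. Neighbours of named genes are given for their position, and any other gene was picked with its values known. Alternatives were another pseudocount (0.1), other minimum values, scaling, and a locus of its own. Python 3.11.15, numpy 2.4.6, pandas 2.3.3 and matplotlib 3.10.9 were used.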

Additional observations from a re-analysis of the deposited data

How the results depend on the processing

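The counts of 70 genes higher and 16 lower depended on the rule. The combined-width rule gave 250 higher and 133 lower, and 2-fold alone gave 1875 and 1953. They changed little otherwise: 69 and 16 with a minimum FPKM of 5, 70 and 16 with none, 70 and 17 after scaling the transgenic line to a median log2 ratio of 0, 63 and 15 among genes that share their locus with no other, and 70 and 16 among genes whose value lies inside its own bounds, an alternative chosen after seeing the data. The log2 difference of hsf-1 was 1.40 after scaling and 1.45 with a pseudocount of 0.1, against 1.42. Restricting the lists to genes in a locus of their own removed the 1 call among heat-inducible genes, hsp-16.2. List medians moved by over 0.1 in 10 of 33 lists with no minimum FPKM, in 6 of the 32 that kept a gene with a minimum of 5 (the vitellogenin list kept none), in 6 with a locus of its own, in 2 with a pseudocount of 0.1 and in 0 after scaling. Where the median so moved it also turned sign for cytosolic Hsp70 and Hsp110 chaperones (0.18 with a locus of its own and 0.00 with no minimum, against −0.12), F-box, MATH and BTB genes (0.05 with no minimum, against −0.26), nuclear hormone receptors (0.03 with no minimum, against −0.16), UDP-glucuronosyl transferases (0.01 with no minimum, against −0.13), hedgehog-related genes (−0.07 with a minimum of 5, against 0.14), antioxidant enzymes (0.10 with a locus of its own, against −0.02) and proteasome subunits (−0.03 with a locus of its own, against 0.08). No paired analysis was possible because the tables hold 1 combined value per genotype, and for the same reason no replicate could be left out. A planned count of heat shock elements in promoters was not run, since no promoter sequence was used here. Bounds of about the size of the value limit what can be called among genes with an FPKM under 20.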

Other observations

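Several genes have values that cannot be read at face value. In 28 of the 12563 genes the FPKM lies outside its own deposited bounds in at least 1 of the 2 genotypes. The largest such value belonged to Y67H2A.10, at 3187 FPKM with bounds of 7.96 to 511 in the transgenic line, 15.3 (0.191 to 661) in the mutant and 198 (1.19 to 1289) in wild type. ocr-1, a TRPV channel gene in a locus shared by 2 genes, was at 837 with bounds of 0 to 300.3 in the transgenic line, 0.991 (0 to 4.05) in the mutant and 2.11 (0 to 5.56) in wild type. Neither was called, although both stand far off the diagonal in the plot of all genes.

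A further 4 genes were outside the rule because their estimate in the transgenic line was marked FAIL or HIDATA and listed at 0. These were the ribosomal protein gene rps-3, at 3768 FPKM in wild type, C23G10.2 in the same locus at 168, H42K12.3 at 874 and ZC247.1 at 23.7. The zeros of the transgenic line in these genes are failed estimates and give no level.

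The neuropeptide genes of the flp, nlp and ins families were counted after their values were seen. Of 148 listed, 125 met the rule and 0 were called, against 0.557% of all genes higher and 0.127% lower. By the combined-width rule 5 were higher and 5 lower, against 1.99% and 1.06% of all genes. The median log2 difference was −0.44. Genes named by their sequence alone made up 4814 of the 12563 genes, and 33 of the 70 called higher and 6 of the 16 called lower. That is 0.686% and 0.125% of them, near the 0.557% and 0.127% of all genes.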
